A study of Homo sapiens with 10 samples.

Results

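Lysosome and autophagy genes were followed in MM.1S, a cell line from human multiple myeloma, after lentiviral infection with short hairpin RNAs against DNMT1 or HDAC3. The list held 49 genes. It was drawn up with earlier results of these arrays known. OSTM1, LAPTM4A and CSTB were selected on their changes against shLuc and between hairpins, so the values of these 3 genes are given as a description, with no test. Counts of called members include these 3 genes unless said otherwise, and nothing is read from their calls. Each gene was read from 1 probe set, the one with the highest mean over the 10 arrays among those annotated to that gene alone. This rule gave values for 48 of the 49 genes and for 19775 genes on the array. GLB1 had no probe set of its own and was not analysed here.

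Each of 5 groups had 2 arrays, with RNA taken 48 h after infection. A pair of hairpins targeted DNMT1 (shDNMT1#2 and shDNMT1#1), which copies DNA methylation after replication. Another pair targeted HDAC3 (shHDAC3#2 and shHDAC3#1), a histone deacetylase of nuclear co-repressor complexes. A hairpin against luciferase (shLuc), which has no target in human cells, was the control of all 4. All 5 groups thus carried a lentivirus, and no uninfected cells were analysed here. Nothing in the labels tells whether the 2 arrays of a group came from separate cultures. The p-values therefore cover only array-to-array spread within groups, and that spread may be technical. The sources used here do not give whether the DNMT1 arrays were infected and processed together with the others. All 4 comparisons with the control used the same 2 shLuc arrays, so that a change common to the 4 hairpins and a deviation of the shLuc arrays cannot be told apart.

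Lysosomes are acidic organelles in which hydrolases break down material delivered by endocytosis and autophagy. A proton pump, the vacuolar ATPase, acidifies the lumen, and chloride and cation channels in the membrane balance the charge and release ions. Transcription factors of the MiT/TFE family bind CACGTG-type elements in the promoters of many lysosomal genes and raise their transcription together. In myeloma cells, which make large amounts of immunoglobulin, autophagy is known as a route of protein disposal beside the proteasome.

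No promoter sequence was at hand for CSTB. The promoters below are shown because their genes, like CSTB, carry the main results, with LAMP1 as a lysosomal gene that was called in no comparison with shLuc. Each is the 250 bases before the annotated start, 5′ to 3′ on the strand of the gene, from RefSeq (GRCh38.p14), and capitals mark CACGTG. OSTM1 lies on the minus strand at chr6:108074742-108074991, CLCN7 on the minus strand at chr16:1475029-1475278, LAPTM4A on the minus strand at chr2:20051629-20051878, SCARB2 on the minus strand at chr4:76213825-76214074 and LAMP1 on the plus strand at chr13:113296989-113297238.
OSTM1: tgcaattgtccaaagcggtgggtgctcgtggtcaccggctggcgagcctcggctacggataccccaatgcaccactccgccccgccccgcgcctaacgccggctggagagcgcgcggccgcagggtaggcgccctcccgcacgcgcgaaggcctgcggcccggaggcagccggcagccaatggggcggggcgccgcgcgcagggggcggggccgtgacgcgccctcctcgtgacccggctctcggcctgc
CLCN7: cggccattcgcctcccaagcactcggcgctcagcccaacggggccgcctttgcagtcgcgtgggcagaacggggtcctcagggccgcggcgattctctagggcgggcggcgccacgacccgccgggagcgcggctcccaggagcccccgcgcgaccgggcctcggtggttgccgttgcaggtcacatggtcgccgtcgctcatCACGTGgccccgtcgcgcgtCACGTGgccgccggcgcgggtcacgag
LAPTM4A: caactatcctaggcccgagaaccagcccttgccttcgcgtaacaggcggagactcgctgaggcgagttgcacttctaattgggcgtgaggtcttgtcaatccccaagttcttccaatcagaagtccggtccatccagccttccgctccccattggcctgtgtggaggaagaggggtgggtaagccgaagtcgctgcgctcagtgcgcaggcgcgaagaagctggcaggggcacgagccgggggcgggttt
SCARB2: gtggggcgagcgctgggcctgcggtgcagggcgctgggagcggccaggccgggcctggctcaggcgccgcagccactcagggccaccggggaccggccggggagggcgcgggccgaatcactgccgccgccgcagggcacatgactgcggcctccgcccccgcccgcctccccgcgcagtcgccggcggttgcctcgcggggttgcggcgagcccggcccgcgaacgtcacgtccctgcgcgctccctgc
LAMP1: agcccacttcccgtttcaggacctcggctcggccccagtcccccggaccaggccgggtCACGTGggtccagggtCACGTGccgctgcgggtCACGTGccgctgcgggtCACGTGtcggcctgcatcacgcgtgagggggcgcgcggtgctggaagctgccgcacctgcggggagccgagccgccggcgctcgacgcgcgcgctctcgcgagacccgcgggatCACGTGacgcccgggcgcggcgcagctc
LAMP1 had 5 copies of CACGTG in these bases and CLCN7 had 2, while OSTM1, LAPTM4A and SCARB2 had none. CACGTG reads the same on both strands. In windows of 300 bases, from 250 before to 50 after the start, it was found in 8 of 37 members with a window (21.6%), against 1369 of 15384 array genes with a window (8.9%). The 8 were CLCN7, MCOLN1, LAMP1, CD63, CTSA, CTSD, GAA and ATP6V0D1. The longer TCACGTG, searched on both strands and containing the first motif, was found in 7 of 37 members (18.9%) and in 751 of 15384 array genes (4.88%). The 8 members with CACGTG had median log2 changes against shLuc of -0.11 in shDNMT1#2, 0.02 in shDNMT1#1, -0.13 in shHDAC3#2 and -0.05 in shHDAC3#1. The 28 measured members with a window but no match had medians of -0.24, 0.04, 0.07 and -0.03 for the same groups in the same order. These shares and medians are descriptions and were not tested.

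The values are log2 signals from RMA, a method that corrects background, normalizes arrays and summarises the probes of a probe set. DNMT1 lay at 17.3% of shLuc with shDNMT1#1 and at 21.1% with shDNMT1#2, and HDAC3 lay at 41.6% with shHDAC3#2 and at 46.9% with shHDAC3#1. DNMT1 was also called lower with both HDAC3 hairpins, at 63.8% of shLuc for shHDAC3#2 and 43.5% for shHDAC3#1. HDAC3 was called lower with shDNMT1#2, at 65.8% of shLuc. Of 10 plasma cell markers, 9 had a mean of at least 7, against 2 of 8 macrophage, 1 of 6 T cell and 2 of 6 fibroblast markers. The median marker was at 9.63 for plasma cells, 6.18 for macrophages, 5.46 for T cells and 6 for fibroblasts. Single markers departed from this, with the fibroblast marker COL1A1 at 8.55 and the plasma cell marker CD38 at 6.21. The SD of all values on an array was 1.843 to 1.915 in hairpin arrays and 1.943 and 1.929 in the shLuc arrays. The 3′ minus 5′ signal of ACTB, which grows with RNA degradation, averaged 1.00 in shHDAC3#1 and 0.71 to 0.74 in the other groups. Pearson's r across genes was 0.9937 to 0.9963 between arrays of a group and 0.9748 to 0.9937 between arrays of different groups. In RNA from whole cultures, fewer cells that express a gene and less RNA per cell cannot be told apart.

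OSTM1 had a higher signal with every hairpin than with shLuc. OSTM1 is the beta subunit of the lysosomal chloride-proton exchanger CLCN7, which is unstable without it. Its signal was 5.05 and 5.36 in shDNMT1#2, 6.35 and 6.15 in shDNMT1#1, 5.24 and 5.56 in shHDAC3#2 and 5.94 and 6.27 in shHDAC3#1, against 3.86 and 3.97 in shLuc. All 8 hairpin arrays lay above both control arrays, and shDNMT1#1 and shHDAC3#1 lay above the other hairpin of their target without overlap. The log2 changes were 1.29, 2.34, 1.48 and 2.19 for shDNMT1#2, shDNMT1#1, shHDAC3#2 and shHDAC3#1 (limma SE 0.15 each, n = 2 arrays a group). The shLuc level of OSTM1 lay near the means of the macrophage genes LYZ (3.94) and FCGR1A (3.91), the dimmest of the markers examined, and whether it was above background was not tested. No fold is given, since against a signal at background the log2 change is a lower bound. The 3 other OSTM1 probe sets had changes above 0 in all 4 groups, of 0.68 to 1.27, 0.54 to 1.18 and 0.29 to 0.45. The difference between hairpins of a target was -1.05 for shDNMT1#2 minus shDNMT1#1 and -0.71 for shHDAC3#2 minus shHDAC3#1 (SE 0.15 each).

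CLCN7 did not follow OSTM1 in size. Its signal was 8.72 and 8.71 in shDNMT1#2, 8.84 and 8.94 in shDNMT1#1, 9.03 and 8.96 in shHDAC3#2 and 9.10 and 9.12 in shHDAC3#1, against 8.80 and 8.84 in shLuc. Both HDAC3 hairpin groups lay above the control arrays, shDNMT1#1 touched the upper control array, and shDNMT1#2 lay below them. The changes were -0.10, 0.07, 0.18 and 0.29 (SE 0.09 each) for shDNMT1#2, shDNMT1#1, shHDAC3#2 and shHDAC3#1, and that of shHDAC3#1 alone was called. That call did not hold in 5 of 20 alternative fits. After a further quantile normalization the changes of CLCN7 were 0.20, 0.19, 0.34 and 0.59 in the same order, so that the direction in shDNMT1#2 turned and shHDAC3#2 was called too (limma adjusted p = 0.014). Its 2 other probe sets differed from each other: one changed by -0.18 to 0.19 and the other by 0.25 to 0.44 over the 4 groups. MCOLN1, a calcium-releasing cation channel of the lysosomal membrane, changed by -0.11, -0.11, -0.13 and -0.40 (SE 0.11 each), and it was called lower in shHDAC3#1 alone.

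CSTB, LAPTM4A and SCARB2 were all far lower in shDNMT1#2 than in any other group. CSTB encodes cystatin B, a cytosolic inhibitor of cathepsins that leak from lysosomes. The CSTB signal was 9.16 and 9.09 in shDNMT1#2, 12.34 and 12.38 in shDNMT1#1, 12.06 and 12.23 in shHDAC3#2 and 11.36 and 11.43 in shHDAC3#1, against 12.07 and 12.10 in shLuc. The 2 shDNMT1#2 arrays stood alone at the bottom, shHDAC3#1 lay next, and shHDAC3#2 overlapped shLuc. The changes, with the groups in that order here and in what follows, were -2.96, 0.28, 0.06 and -0.69 (SE 0.08 each), so that shDNMT1#2 had 12.9% of the shLuc signal. Against shDNMT1#1 the change was -3.23 (SE 0.08), or 10.6% of its signal. A second CSTB probe set changed by -0.91, 0.20, -0.06 and -0.32 in the same groups, with the same signs except in shHDAC3#2.

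LAPTM4A, a membrane protein of late endosomes and lysosomes, had opposite signs in shDNMT1#2 and in the other groups. Its signal was 6.72 and 6.55 in shDNMT1#2, 9.48 and 9.30 in shDNMT1#1, 9.45 and 9.68 in shHDAC3#2 and 9.68 and 9.84 in shHDAC3#1, against 9.12 and 8.99 in shLuc. Without overlap, the shDNMT1#2 arrays lay below the control arrays and the 6 other hairpin arrays lay above them. The changes were -2.42, 0.34, 0.51 and 0.71 (SE 0.10 each). In shDNMT1#2 the signal was 18.7% of that in shLuc and 14.8% of that in shDNMT1#1. The gene has a single probe set, so no second reading was at hand. Its relatives moved otherwise: LAPTM4B, which is amplified in several cancers, changed by -0.13, -0.20, -0.41 and 0.59 (SE 0.12 each), and LAPTM5, a lysosomal protein of blood cells, by -0.41, 0.19, -0.19 and -0.37 (SE 0.09 each). LAPTM4B was called lower in shHDAC3#2 and higher in shHDAC3#1, and LAPTM5 was called lower in shDNMT1#2 and shHDAC3#1.

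SCARB2 is the receptor that carries beta-glucocerebrosidase to lysosomes. Its signal was 7.25 and 6.96 in shDNMT1#2, 9.23 and 9.03 in shDNMT1#1, 8.69 and 8.85 in shHDAC3#2 and 8.91 and 9.17 in shHDAC3#1, against 9.62 and 9.41 in shLuc. Every hairpin array lay below the control arrays, and those of shDNMT1#2 lay far below the rest. The changes were -2.41, -0.38, -0.75 and -0.47 (SE 0.12 each), and all 4 were called. The call in shDNMT1#1 did not hold in 11 of 20 alternative fits. With the SD of each array as a covariate, the changes of SCARB2 were -1.51, -0.06, -0.29 and 0.24, so the direction in shHDAC3#1 turned. Of its 3 other probe sets, 2 changed by -2.07 and -1.55 in shDNMT1#2 and by -0.81 to -0.42 in the other groups, and a dim one changed by -0.14 to 0.02.

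**Figure D1:**
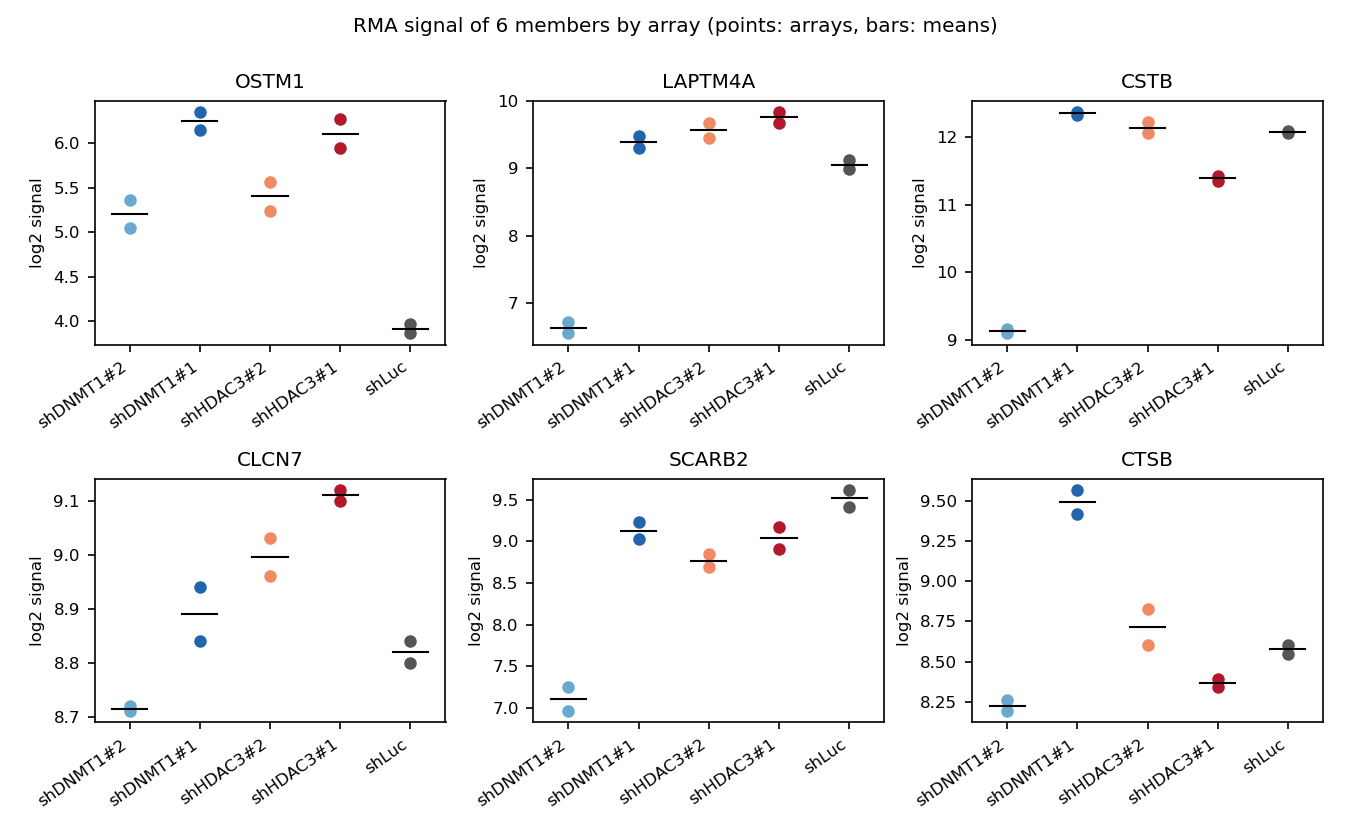
Log2 RMA signal (vertical axis, its range set for each gene) of OSTM1, LAPTM4A, CSTB, CLCN7, SCARB2 and CTSB on each of the 10 arrays, by hairpin group; points are arrays and bars are means of 2 arrays. OSTM1 lay at 5.05 to 6.35 in hairpin arrays and at 3.86 and 3.97 in shLuc, and LAPTM4A, CSTB and SCARB2 were lowest in shDNMT1#2.

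Over the whole list, more members were called lower than higher with each hairpin. In shDNMT1#2, 5 of 48 members were called higher and 22 lower, where 26.8% of all 19775 genes were called (11.6% higher and 15.2% lower). In shDNMT1#1, 5 were called higher and 9 lower (8.15% of all genes, 1.34% higher and 6.81% lower). In shHDAC3#2, 3 were called higher and 13 lower (10.9% of all genes, 1.31% higher and 9.54% lower), and in shHDAC3#1, 6 were called higher and 25 lower (24.4% of all genes, 7.83% higher and 16.6% lower). The median change of the 48 members was -0.19, -0.01, 0.04 and -0.30 for shDNMT1#2, shDNMT1#1, shHDAC3#2 and shHDAC3#1, where that of all genes was 0.08, 0.05, 0.05 and 0.06. Nothing is read from these counts, since the list was chosen with these comparisons known. A gene counts as called at an adjusted p under 0.05 (limma, Benjamini-Hochberg over all 19775 genes).

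The level of the signal moved with these counts. Of the 2926 genes with a mean of at least 8, 46.1% were called in shDNMT1#2, 18.2% in shDNMT1#1, 25.3% in shHDAC3#2 and 50.2% in shHDAC3#1, and 39.8%, 15.7%, 22.7% and 41% were called lower, and 6.29%, 2.56%, 2.63% and 9.23% higher, in the same order. Their median changes were -0.15, -0.03, -0.04 and -0.17. After a further quantile normalization, which makes the spread of all arrays equal, the members called higher and lower were 11 and 13 in shDNMT1#2, 10 and 6 in shDNMT1#1, 10 and 12 in shHDAC3#2 and 10 and 17 in shHDAC3#1. The excess of lower calls was thus smaller after it in all 4 groups, and in shDNMT1#1 it turned. Of all genes, 28%, 8.04%, 11% and 27.3% were called after quantile normalization, in the order shDNMT1#2, shDNMT1#1, shHDAC3#2 and shHDAC3#1. With the SD of each array as a covariate, 5, 8, 4 and 6 members were called. Of all genes, 0.602%, 2.81%, 2.63% and 1.14% were called in that fit, in the same order. The member medians were 0.01 in shDNMT1#2 and 0.03 in shHDAC3#1. Without the first shLuc array, which leaves a single control array, fewer members and a smaller share of all genes were called in each of the 4 groups. The member median was then 0.01 in shDNMT1#1 and -0.26 in shHDAC3#1. The part of the higher ACTB 3′ minus 5′ value in the shHDAC3#1 counts was not tested.

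Without OSTM1, LAPTM4A and CSTB, the 45 other members were called higher and lower in 4 and 20 cases in shDNMT1#2, 3 and 9 in shDNMT1#1, 1 and 13 in shHDAC3#2 and 4 and 24 in shHDAC3#1. Of these 45, 35 were called in at least 1 group, as were 41% of all 19775 genes and 69.1% of the 2926 with a mean of at least 8. The 10 called in none were LAMP1, TMEM192, CTSL, CTSZ, GLA, GAA, GM2A, TFEB, TFE3 and MITF. LAMP3, LAPTM4B, CTSB and SQSTM1 were each called higher in at least 1 group and lower in 1. LAMP2, SCARB2, ASAH1, ATP6V1A and ATP6AP2 were called lower in all 4 groups (5 members), as were 628 of all 19775 genes (3.18%). With array SD as a covariate, only 1 of these 20 calls held, that of SCARB2 in shDNMT1#2. In that fit 0 of all 19775 genes were called lower in all 4 groups. After quantile normalization 12 of the 20 held, and LAMP2 alone of the 5 kept its calls in all 4 groups. Of all genes, 389 (1.97%) were then called lower in all 4.

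**Figure D2:**
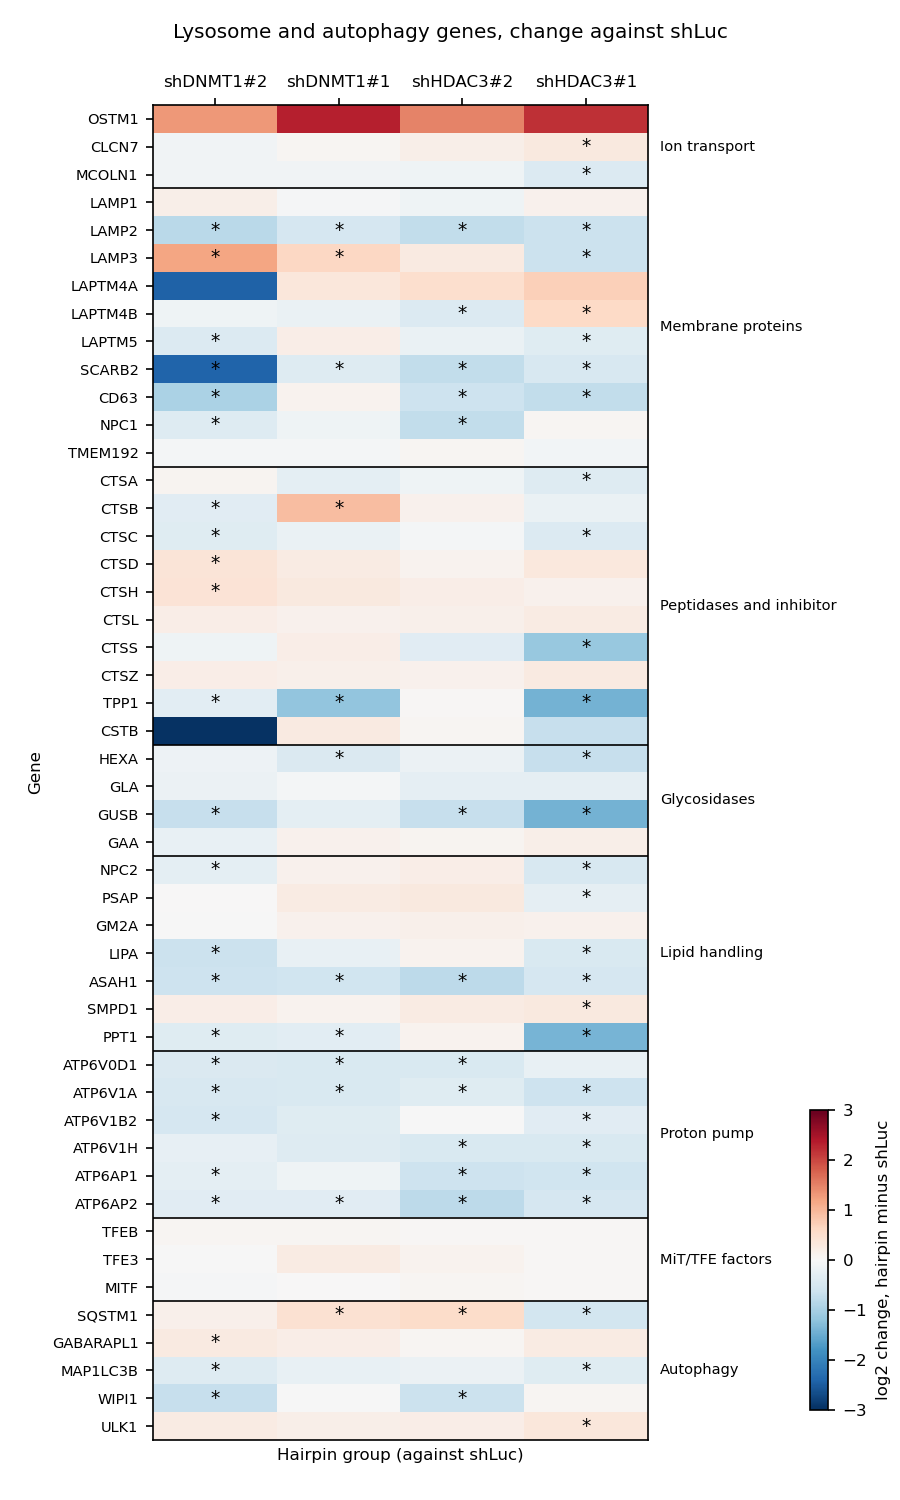
Log2 change against shLuc (colour) of 48 members (rows, by role) in the 4 hairpin groups (columns); an asterisk marks a gene called at an adjusted p under 0.05, and OSTM1, LAPTM4A and CSTB, described without a test, carry none. OSTM1 is higher in all 4 columns, and CSTB, LAPTM4A and SCARB2 are the darkest cells of shDNMT1#2, with changes of -2.96, -2.42 and -2.41.

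Among the 10 membrane proteins, 6 were called lower in shDNMT1#2, 2 in shDNMT1#1, 5 in shHDAC3#2 and 5 in shHDAC3#1, and 1, 1, 1 and 2 were called higher. Of all genes, 15.2%, 6.81%, 9.54% and 16.6% were called lower in these groups, and of those with a mean of at least 8, 39.8%, 15.7%, 22.7% and 41%; the counts for the other roles stand against the same shares. LAMP2, a structural glycoprotein of the membrane that also serves chaperone-mediated autophagy, was at 7.26 and 7.35 in shDNMT1#2, 7.81 and 7.44 in shDNMT1#1, 7.23 and 7.51 in shHDAC3#2 and 7.43 and 7.51 in shHDAC3#1, against 8.23 and 8.02 in shLuc. Every hairpin array lay below both controls, and the changes were -0.82, -0.50, -0.75 and -0.65 (SE 0.12 each). With array SD as a covariate the changes of LAMP2 were -0.04, -0.22, -0.35 and -0.02, and none was called. Its 3 other probe sets changed by -0.94 to -0.37, -0.77 to -0.21 and -0.68 to 0.05. Its close relative LAMP1 changed by 0.17, -0.04, -0.14 and 0.13 (SE 0.09 each) and was called in no group, while 2 of its 3 other probe sets changed by -0.29 to 0.05 and by -0.33 to -0.05. CD63, a tetraspanin of late endosomes and exosomes, changed by -0.94, 0.11, -0.61 and -0.73 (SE 0.09 each), and NPC1, which exports cholesterol from lysosomes, by -0.39, -0.14, -0.73 and 0.07 (SE 0.13 each). CD63 was called lower in all groups but shDNMT1#1, and NPC1 in shDNMT1#2 and shHDAC3#2. An NPC1 probe set of nearly the same mean (5.61 against 5.65) changed by 0.09 in shDNMT1#2 and 0.07 in shHDAC3#2. Another changed by -0.02 and 0.27 in these groups and a dim one by 0.20 and 0.15, so the NPC1 probe sets disagreed. TMEM192, a lysosomal membrane protein often used as a tag for isolating the organelle, stayed between -0.09 and 0.07.

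The 6 proton pump genes lay below shLuc in all 4 groups, with medians of -0.39, -0.37, -0.45 and -0.47 in shDNMT1#2, shDNMT1#1, shHDAC3#2 and shHDAC3#1; after quantile normalization the medians were -0.16, -0.31, -0.37 and -0.27, and with array SD as a covariate they were 0.32, -0.13, -0.09 and 0.05, so the direction flipped in shDNMT1#2 and shHDAC3#1. Called lower were 5, 3, 5 and 5 of the 6, and 1, 2, 3 and 3 after quantile normalization. ATP6V1A, the catalytic subunit of the pump, was at 9.15 and 9.02 in shDNMT1#2, 9.15 and 9.06 in shDNMT1#1, 9.17 and 9.26 in shHDAC3#2 and 8.90 and 8.99 in shHDAC3#1, against 9.62 and 9.51 in shLuc. All 8 hairpin arrays were below both controls, and the changes were -0.48, -0.46, -0.36 and -0.62 (SE 0.09 each), or -0.07, -0.32, -0.14 and -0.29, none of them called, with array SD as a covariate. Its second probe set changed by -0.66 to -0.33. ATP6AP2, an accessory subunit also known as the prorenin receptor, was at 9.37 and 9.26 in shDNMT1#2, 9.41 and 9.18 in shDNMT1#1, 8.74 and 8.97 in shHDAC3#2 and 9.05 and 9.24 in shHDAC3#1, against 9.67 and 9.62 in shLuc. Again no hairpin array reached the controls, and the changes were -0.33, -0.35, -0.79 and -0.50 (SE 0.10 each); under quantile normalization the change in shDNMT1#2 was 0.05. With array SD as a covariate the changes of ATP6AP2 were 0.40, -0.09, -0.42 and 0.09, and its call in shDNMT1#1 did not hold in 12 of 19 alternative fits. A second ATP6AP2 probe set changed by -0.70 to -0.20 and a dim one by 0.07 to 0.25. The other subunits were ATP6V0D1 (-0.46 to -0.23), ATP6V1B2 (-0.50 to -0.01), ATP6V1H (-0.45 to -0.24) and ATP6AP1 (-0.61 to -0.13) over the 4 groups. The call of ATP6AP1 in shDNMT1#2 did not hold in 10 of 19 alternative fits.

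Peptidases differed from gene to gene. Of 9 peptidases and the inhibitor CSTB, 2 were called higher and 4 lower in shDNMT1#2, 2 and 1 in shDNMT1#1, and 0 and 5 in shHDAC3#1. In shHDAC3#2 limma called 0 of the 10, and 1 had an unadjusted p under 0.05. CSTB, selected on its changes, is counted as lower in shDNMT1#2 and shHDAC3#1 and as higher in shDNMT1#1. Its call in shDNMT1#1 did not hold in 14 of 20 alternative fits. CTSD, the main aspartic protease, changed by 0.38, 0.25, 0.10 and 0.32 (SE 0.12 each), and CTSH by 0.40, 0.29, 0.21 and 0.12 (SE 0.11 each); both were called higher in shDNMT1#2 alone. CTSL and CTSZ, cysteine cathepsins called in no group, changed by 0.13 to 0.25 and by 0.14 to 0.26. A second CTSZ probe set went the other way, by -0.30, -0.24, -0.89 and -0.41. CTSS, a cathepsin of antigen-presenting cells, changed by -0.14, 0.21, -0.33 and -1.14 (SE 0.14 each), called in shHDAC3#1 alone. CTSA, the protective protein of other hydrolases, changed by 0.09, -0.30, -0.13 and -0.39, and CTSC, which activates granule proteases, by -0.36, -0.20, -0.07 and -0.41 (SE 0.11 each). Of the other CTSC probe sets, 1 changed by -0.31 to -0.11, another by 0.10 to 0.24 and a dim one by 0 to 0.27.

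Of the 4 glycosidases, 1, 1, 1 and 2 were called lower in shDNMT1#2, shDNMT1#1, shHDAC3#2 and shHDAC3#1, and of the 7 genes of lipid handling, 4, 2, 1 and 5. GUSB, which cleaves glucuronides, changed by -0.68, -0.29, -0.68 and -1.42 (SE 0.10 each), while its second probe set changed by 0.11 to 0.22. HEXA, whose loss causes Tay-Sachs disease, changed by -0.16, -0.43, -0.18 and -0.69, while its 3 other probe sets changed by 0.02 to 0.36. GLA, lost in Fabry disease, changed by -0.26 to -0.06, and GAA, lost in Pompe disease, by -0.22 to 0.18. ASAH1, acid ceramidase, was at 8.61 and 8.67 in shDNMT1#2, 8.80 and 8.55 in shDNMT1#1, 8.32 and 8.64 in shHDAC3#2 and 8.75 and 8.79 in shHDAC3#1, against 9.33 and 9.21 in shLuc. No hairpin array reached the controls, with changes of -0.63, -0.59, -0.79 and -0.50 (SE 0.11 each). With array SD as a covariate the changes of ASAH1 were 0.03, -0.36, -0.45 and 0.02, and none was called. Among its 4 other probe sets, 3 changed by -0.64 to -0.23, and a dim one by 0.08 to 0.34. The sterol carrier NPC2 changed by -0.30, 0.13, 0.21 and -0.47, the lipase LIPA by -0.65, -0.22, 0.11 and -0.45, and the saposin precursor PSAP by 0.01, 0.25, 0.30 and -0.27 (SE 0.10 each). SMPD1, acid sphingomyelinase, changed by 0.11 to 0.30 and was called higher in shHDAC3#1, a call that did not hold in 9 of 20 alternative fits. A second SMPD1 probe set changed by -0.57, 0.08, -0.32 and -0.43. GM2A, a lipid-presenting cofactor of hexosaminidase, changed by -0.01 to 0.15.

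The MiT/TFE factors TFEB, TFE3 and MITF were called in no comparison with shLuc by limma, with 1 value of TFE3 in shDNMT1#1 at an unadjusted p under 0.05. TFEB changed by 0.04 to 0.07, MITF by -0.04 to 0.06 and TFE3 by -0.01 to 0.24 over the 4 groups, against standard errors of 0.10, 0.12 and 0.09. A second TFEB probe set changed by -0.45 to -0.13, and 2 others of TFE3 by 0.17 to 0.47 and by -0.02 to 0.11. After quantile normalization 1 of the 3 was called higher in shDNMT1#1. These factors are known to be controlled mainly by moving between cytoplasm and nucleus, which RNA levels do not show.

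Among the 5 autophagy genes, SQSTM1, an adaptor that links ubiquitinated cargo to autophagosomes, was called higher in shDNMT1#1 (0.46) and shHDAC3#2 (0.56) and lower in shHDAC3#1 (-0.56), with 0.15 in shDNMT1#2 (SE 0.09 each). In shHDAC3#1 its 3 next brightest probe sets changed by 0.18, 0.19 and 0.61. MAP1LC3B, the LC3 protein of autophagosome membranes, changed by -0.38, -0.22, -0.17 and -0.36 (SE 0.11 each), and its relative GABARAPL1 by 0.26, 0.19, 0.07 and 0.25 (SE 0.09 each). The first was called lower in shDNMT1#2 and shHDAC3#1, the second higher in shDNMT1#2, where the call of GABARAPL1 did not hold in 10 of 19 alternative fits. Another MAP1LC3B probe set changed by -1.27, -0.13, -0.21 and -0.22 in shDNMT1#2, shDNMT1#1, shHDAC3#2 and shHDAC3#1. WIPI1, which binds phosphoinositides on forming autophagosomes, changed by -0.69 in shDNMT1#2, -0.01 in shDNMT1#1, -0.65 in shHDAC3#2 and 0.05 in shHDAC3#1 (SE 0.13 each). ULK1, the kinase that starts autophagy, changed by 0.18 to 0.34 and was called higher in shHDAC3#1, a call that did not hold in 11 of 20 alternative fits, the replicate block among them.

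**Figure D3:**
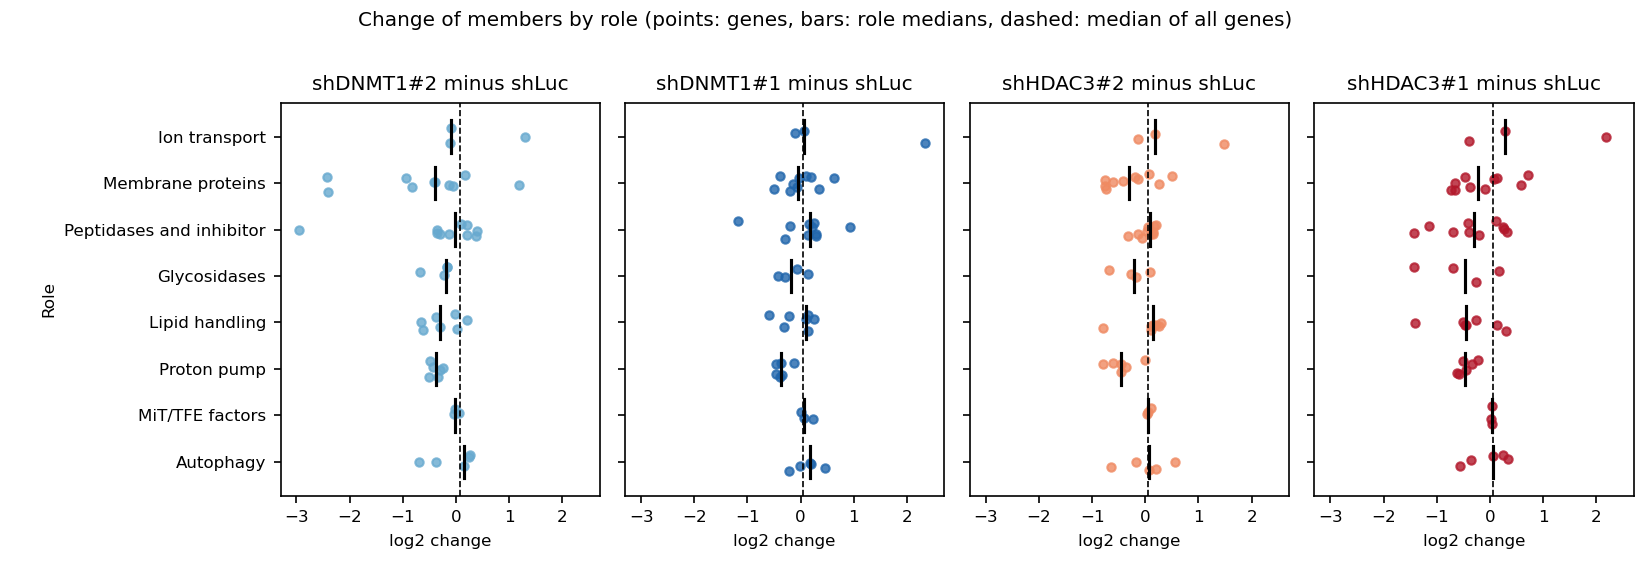
Log2 change against shLuc (horizontal axis) of 48 members by role (vertical axis) in the 4 hairpin groups; points are genes, black bars are medians of a role and the dashed line is the median of all 19775 genes. The 6 proton pump genes lie below 0 in every panel, the MiT/TFE factors lie near 0, and CSTB, LAPTM4A and SCARB2 lie between -3 and -2 in shDNMT1#2.

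The hairpins of DNMT1 differed in 16 of 48 members, 3 of them higher and 13 lower in shDNMT1#2 than in shDNMT1#1, where 12% of all genes were called (3.57% higher and 8.39% lower) and 26.7% of those with a mean of at least 8 (2.9% higher and 23.8% lower). The 13 include OSTM1, LAPTM4A and CSTB, whose differences were among the values that chose them. SCARB2 fell by 2.03 (SE 0.12, limma adjusted p = 1.2e-10), to 24.5% of its signal in shDNMT1#1. CTSB, a cysteine cathepsin that cystatin B can inhibit, was at 8.26 and 8.19 in shDNMT1#2, 9.57 and 9.42 in shDNMT1#1, 8.60 and 8.83 in shHDAC3#2 and 8.34 and 8.39 in shHDAC3#1, against 8.55 and 8.60 in shLuc. The shDNMT1#1 arrays were above all others and the shDNMT1#2 arrays below all others. The difference between the DNMT1 hairpins was -1.27 (SE 0.10, limma adjusted p = 8.5e-09), and its 4 other probe sets gave -1.63 to -0.68. CD63 fell by 1.05 (limma adjusted p = 7.9e-08), WIPI1 by 0.68 (limma adjusted p = 0.00086) and LAPTM5 by 0.60 (limma adjusted p = 4.3e-05) in shDNMT1#2 relative to shDNMT1#1. TPP1, a peptidase lost in a neuronal ceroid lipofuscinosis, was higher in shDNMT1#2 by 0.87 (SE 0.11, limma adjusted p = 6.2e-06), LAMP3 by 0.55 (limma adjusted p = 0.0033) and CTSA by 0.38 (limma adjusted p = 0.021). With array SD as a covariate, 8 members were called between the DNMT1 hairpins, where 3.39% of all genes were called.

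The hairpins of HDAC3 differed in 17 members, 13 of them higher and 4 lower in shHDAC3#2 than in shHDAC3#1, where 12.6% of all genes were called (8.85% higher and 3.75% lower) and 29.9% of those with a mean of at least 8 (22.7% higher and 7.25% lower). CSTB is among the 13 and OSTM1 among the 4. PPT1, which removes palmitate from proteins, was at 9.59 and 9.73 in shHDAC3#2 and at 8.19 and 8.11 in shHDAC3#1, with 9.22 and 9.16 in shDNMT1#2, 9.28 and 9.19 in shDNMT1#1 and 9.55 and 9.56 in shLuc. The shHDAC3#1 arrays stood alone at the bottom and those of shHDAC3#2 at the top. The difference was 1.51 (SE 0.09, limma adjusted p = 1.7e-10), and the gene has a single probe set.

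TPP1 was at 8.53 and 8.62 in shHDAC3#2 and at 7.0 and 7.23 in shHDAC3#1, with 8.27 and 8.18 in shDNMT1#2, 7.44 and 7.27 in shDNMT1#1 and 8.64 and 8.43 in shLuc. The arrays thus formed a low set of shHDAC3#1 and shDNMT1#1 and a high set of the other groups. The difference between the HDAC3 hairpins was 1.46 (SE 0.11, limma adjusted p = 3.7e-09). One other TPP1 probe set gave 1.57 and 2 more gave 0.27 and -0.02, so the probe sets of this gene disagreed. SQSTM1 was at 9.60 and 9.79 in shHDAC3#2 and at 8.54 and 8.60 in shHDAC3#1, with 9.31 and 9.24 in shDNMT1#2, 9.63 and 9.55 in shDNMT1#1 and 9.11 and 9.15 in shLuc. Only the shHDAC3#1 arrays lay below the controls. Its difference between the HDAC3 hairpins was 1.12 (SE 0.09, limma adjusted p = 1.2e-08), but its 4 other probe sets gave -0.21 to 0.18.

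LAPTM4B was at 7.08 and 7.15 in shHDAC3#2 and at 7.97 and 8.24 in shHDAC3#1, with 7.42 and 7.37 in shDNMT1#2, 7.46 and 7.19 in shDNMT1#1 and 7.61 and 7.44 in shLuc. The shHDAC3#1 arrays were the highest and those of shHDAC3#2 the lowest. The difference was -0.99 (SE 0.12, limma adjusted p = 2.1e-06), and its 3 other probe sets gave -0.65 to -0.53. LAMP3 (0.91, limma adjusted p = 1.2e-05), CTSS (0.81, limma adjusted p = 0.00018), GUSB (0.74, limma adjusted p = 1.4e-05), NPC2 (0.68, limma adjusted p = 5.2e-05), PSAP (0.57, limma adjusted p = 0.00025) and LIPA (0.56, limma adjusted p = 0.00028) were higher in shHDAC3#2, and NPC1 (-0.80, limma adjusted p = 0.00014) and WIPI1 (-0.70, limma adjusted p = 0.00051) were lower. The other NPC1 probe sets differed by only -0.05 to -0.04 between the HDAC3 hairpins. ACTB 3′ minus 5′ averaged 0.74 in shHDAC3#2 and 1.00 in shHDAC3#1, and its part in the differences between these hairpins was not tested.

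**Figure D4:**
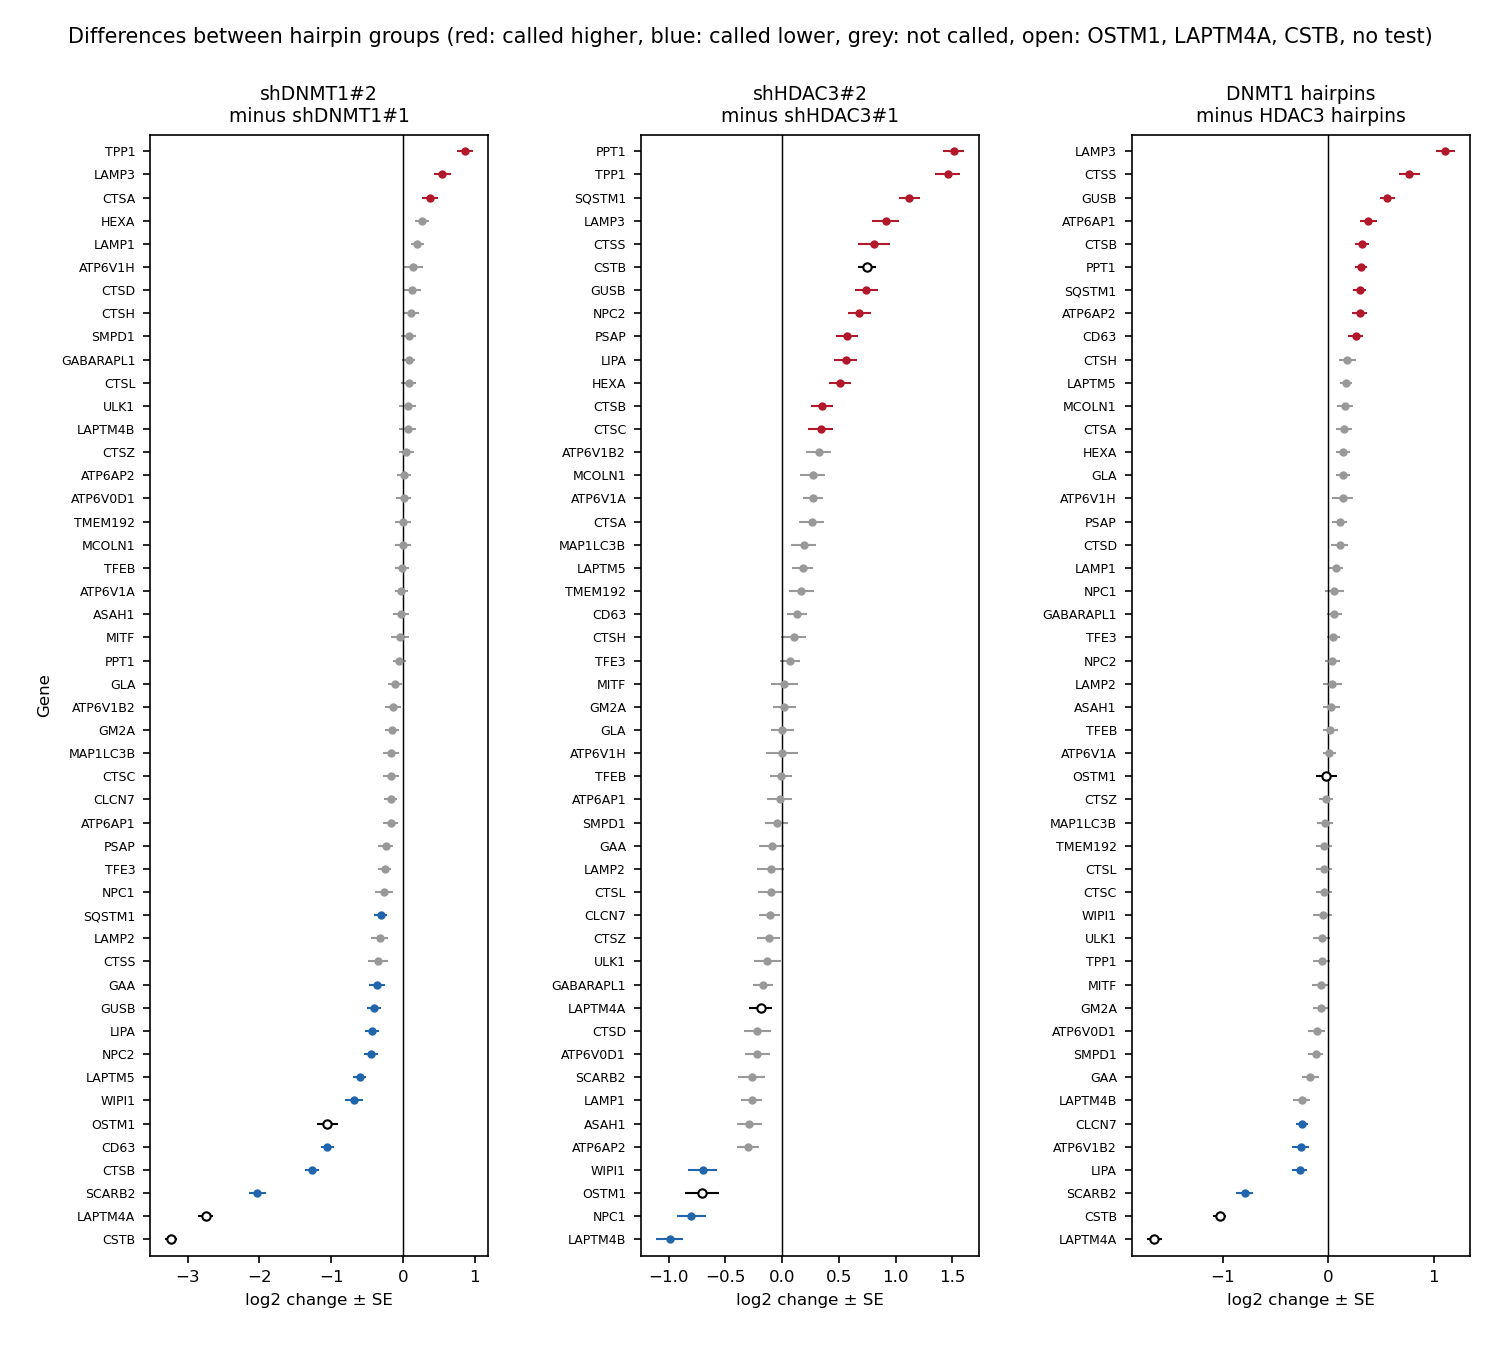
Log2 difference ± SE (horizontal axis) of 48 members, sorted within each panel, for shDNMT1#2 minus shDNMT1#1, shHDAC3#2 minus shHDAC3#1 and the DNMT1 hairpins minus the HDAC3 hairpins; red and blue points were called at an adjusted p under 0.05, and OSTM1, LAPTM4A and CSTB are open points because they are described without a test. CSTB, LAPTM4A and SCARB2 stand apart at -3.23, -2.75 and -2.03 in the first panel, and PPT1 and TPP1 lead the second at 1.51 and 1.46.

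Between the targets, 9 members were called higher and 6 lower with the DNMT1 hairpins than with the HDAC3 hairpins (4 arrays each), where 9.59% of all genes were called (6% higher and 3.59% lower) and 21.5% of those with a mean of at least 8 (12.7% higher and 8.82% lower). LAPTM4A and CSTB are among the 6. LAMP3, a LAMP family member induced by interferon in many cells, was at 6.70 and 6.76 in shDNMT1#2 and 6.26 and 6.09 in shDNMT1#1, against 5.68 and 5.91 in shHDAC3#2 and 4.89 and 4.89 in shHDAC3#1, with 5.61 and 5.47 in shLuc. All 4 DNMT1 arrays lay above all 4 HDAC3 arrays. The difference was 1.11 (SE 0.09, limma adjusted p = 1.5e-08), and the gene has 1 probe set. SCARB2 differed by -0.79 (SE 0.08, limma adjusted p = 1.2e-06), and the differences of LAPTM4A and CSTB were -1.65 and -1.03, with the 2 shDNMT1#2 arrays far from the 2 shDNMT1#1 arrays in all 3 genes. CTSS (0.77, limma adjusted p = 9e-06) and GUSB (0.56, limma adjusted p = 1e-05) were higher. None of the 15 calls held when the hairpin was a random block in limma, with an estimated correlation of 0.351 between arrays of 1 hairpin. In that fit 7 of 48 members had an unadjusted p under 0.05, and 6 of all 19775 genes were called.

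Other genes of the pathway were read from lists of 66 measured lysosome genes and 46 measured autophagy genes. Of the lysosome genes, 8 were called higher and 14 lower in shDNMT1#2, 1 and 10 in shDNMT1#1, 1 and 13 in shHDAC3#2 and 2 and 22 in shHDAC3#1. Of the autophagy genes, 2 and 12, 0 and 5, 1 and 6, and 2 and 13 were called higher and lower in these groups. Of all genes, 11.6% and 15.2% were called higher and lower in shDNMT1#2, 1.34% and 6.81% in shDNMT1#1, 1.31% and 9.54% in shHDAC3#2 and 7.83% and 16.6% in shHDAC3#1. The median changes were -0.01, -0.03, -0.04 and -0.13 for the lysosome genes and -0.06, 0.02, -0.02 and -0.10 for the autophagy genes. For single genes of these lists, named below, neither other probe sets nor alternative fits were examined, unlike for the members.

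GNPTAB, which starts the mannose phosphate tag that sends hydrolases to lysosomes, changed by -1.59 (SE 0.13) in shDNMT1#2, while NAGPA, which uncovers that tag, changed by 0.68 (SE 0.11). Between shDNMT1#2 and shDNMT1#1 the differences were -1.37 for GNPTAB (limma adjusted p = 1.4e-07) and 0.81 for NAGPA (limma adjusted p = 1.3e-05). RRAGD, a Rag GTPase of nutrient sensing at the lysosome, changed by -1.67 in shHDAC3#2 (SE 0.10) and differed from shHDAC3#1 by -1.61 (limma adjusted p = 5.1e-10). FNIP2, a partner of folliculin in the same pathway, was called lower in all 4 groups, with changes of -1.27, -0.73, -1.24 and -0.53 (SE 0.18 each). FUCA1, a fucosidase, and ATP6V0E1, a proton pump subunit, changed by -1.02 (SE 0.11) and -0.99 (SE 0.10) in shHDAC3#1.

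Of the autophagy genes, RB1CC1, a scaffold of the ULK1 complex, changed by 0.57 in shHDAC3#2 and by -1.06 in shHDAC3#1 (SE 0.11 each), a difference of 1.63 between the hairpins (limma adjusted p = 8.3e-10). PIK3C3, the lipid kinase of autophagosome formation, changed by -1.02 (SE 0.12) in shHDAC3#1, and its regulatory subunit PIK3R4 by -1.02 (SE 0.11) in shDNMT1#2. RUBCN, an inhibitor of that kinase complex, changed by -0.91 in shDNMT1#2, -0.68 in shDNMT1#1 and -0.82 in shHDAC3#1 (SE 0.13 each). The DNMT1 hairpins differed by -1.03 for PIK3R4 (limma adjusted p = 7.8e-07).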

How the data were processed

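RNA of MM.1S cells was hybridized to an Affymetrix 3′ expression array, with 2 arrays for each of 5 hairpin groups. For 54675 probe sets the authors deposited log2 signals from RMA, as the submitters' processing notes give it, per the labels; the log2 scale was read from the values. The sources used here do not give the software version or whether all arrays were normalized in 1 run. RMA values of dim probe sets understate changes, and the number of arrays limits the precision.

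Gene names came from the platform annotation: 41091 probe sets had 1 symbol, 1801 several and 11721 none, and only the first kind was used. The brightest probe set by the mean of 10 arrays stood for each of 19775 genes. No dim probe set was removed. Limma 3.58.1 in R 4.3.3 was fitted to 5 group means (lmFit, then eBayes with a variance trend, 5 residual degrees of freedom), with two-sided tests and Benjamini-Hochberg adjustment over all genes. SE is limma's standard error of a log2 change between 2 and 2 arrays, or 4 and 4 for the targets. On simulated data with the means and spreads of the 19775 genes, the test recovered 69% of changes of 0.5 and 100% of changes of 1 for shHDAC3#1 against shLuc, with 7 unchanged genes among 176 calls. For shDNMT1#2 against shDNMT1#1 it recovered 74% and 100%. The simulated arrays had independent noise and no differences in SD between groups, and only 100 genes changed at each size. The real arrays differed in SD and had many more calls, so these shares do not show how the test behaves on them.

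Members, lists and tests were chosen with earlier results of these data known. Named per array were OSTM1, LAPTM4A, CSTB, members called the same way in all 4 groups, and up to 4 called members with the largest change in each comparison without shLuc. CLCN7, the partner of OSTM1, was added to these after its values were seen. From the other lists, up to 3 called genes each way with the largest change per comparison could be named. The alternatives tried were a floor on the mean signal, all probe sets of a gene averaged, no probe sets with possible cross-hybridization, quantile normalization, centring, no variance trend, array weights, only the arrays compared, a replicate block, array SD as a covariate, leaving out each array, and hairpin as a random block.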

Additional observations from a re-analysis of the deposited data

Results flagged for a closer look

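CSTB differed between the DNMT1 hairpins by -3.23 on the log2 scale for shDNMT1#2 minus shDNMT1#1, with both shDNMT1#2 arrays below and both shDNMT1#1 arrays above the shLuc arrays. It is given as a description, with no test. CTSB differed between the same hairpins by -1.27 (limma adjusted p = 8.5e-09), again with the hairpins on opposite sides of shLuc. SQSTM1 differed between the HDAC3 hairpins by 1.12 for shHDAC3#2 minus shHDAC3#1 (limma adjusted p = 1.2e-08), and LAPTM4B by -0.99 (limma adjusted p = 2.1e-06). In both genes, hairpins against the same target lay on opposite sides of the control arrays in the brightest probe set. The 4 other SQSTM1 probe sets gave only -0.21 to 0.18 between the HDAC3 hairpins, whereas the 3 others of LAPTM4B gave -0.65 to -0.53.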

How the results depend on the processing

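Of 136 calls of members, 136 held with dim probe sets left out, 131 with centred arrays, 132 with only the arrays compared, 130 with array weights, 119 without the variance trend, 109 after quantile normalization, 99 with all probe sets of a gene averaged, 89 of 114 without probe sets that can cross-hybridize, 58 with array SD as a covariate and 94 without shLuc replicate 1. Correlations between groups of the difference between replicates ran from -0.34 to 0.27, with 2 of 10 over 0.1. Each group gives a single such difference, so whether replicate numbers pair the arrays cannot be told from it. With a replicate block 126 calls held, and 24, 10, 16 and 30 members were called against shLuc in shDNMT1#2, shDNMT1#1, shHDAC3#2 and shHDAC3#1. Of all genes, 24.3%, 7.16%, 10.1% and 22.2% were called with that block, in the same order. The causes of these changes were not tested.

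Members called with each replicate left out in turn ran from 13 to 27 in shDNMT1#2, 6 to 18 in shDNMT1#1, 11 to 17 in shHDAC3#2 and 17 to 35 in shHDAC3#1, the lowest each without shLuc replicate 1. Without shDNMT1#2 replicate 2, 15 were called in shDNMT1#2; without shDNMT1#1 replicate 2, 8 in shDNMT1#1; without shHDAC3#1 replicate 1, 19 in shHDAC3#1. The range was 10 to 16 between the DNMT1 hairpins (lowest without shDNMT1#2 replicate 2), 14 to 20 between the HDAC3 hairpins and 12 to 16 between the targets. Where leaving out a named replicate lowered the count, a smaller share of all genes was also called in that comparison than with all arrays. The lower counts were thus not particular to the members. The member medians ran from -0.26 to -0.12, -0.02 to 0.01, -0.03 to 0.06 and -0.36 to -0.26 in shDNMT1#2, shDNMT1#1, shHDAC3#2 and shHDAC3#1. With hairpin as a random block, 0 members were called between the targets.

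With array SD as a covariate, 5, 8, 4 and 6 members were called in the 4 groups and 8 between the DNMT1 hairpins. Of all genes, 0.602%, 2.81%, 2.63%, 1.14% and 3.39% were called in these comparisons, in the same order. The member median was 0.01 in shDNMT1#2 and 0.03 in shHDAC3#1. Signs turned in shDNMT1#2 for NPC1 (0.19), CTSB (0.12), CTSC (0.27), TPP1 (0.33), NPC2 (0.19), ASAH1 (0.03), ATP6V0D1 (0.37), ATP6AP1 (0.28), ATP6AP2 (0.40) and GABARAPL1 (-0.03), and in shHDAC3#1 for SCARB2 (0.24), CTSA (0.17), CTSC (0.10), PSAP (0.26), ASAH1 (0.02), ATP6V1B2 (0.02), ATP6V1H (0.25) and ATP6AP2 (0.09). Quantile normalization gave medians of -0.08 in shDNMT1#2 and -0.11 in shHDAC3#1, and changes in shDNMT1#2 of 0 for CTSC, 0.01 for PPT1 and 0.05 for ATP6AP2. After it, 6 members were called higher and 10 lower between the DNMT1 hairpins, 12 and 10 between the HDAC3 hairpins, and 10 and 7 between the targets. Of all genes, 12.9%, 14.2% and 11.3% were called in these comparisons, in the same order.

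Without probe sets that can cross-hybridize, 37 of the 48 members were measured. The counts and medians of this fit thus cover fewer genes than the main ones. In it, 7 members were called in shDNMT1#1, 10 in shHDAC3#2, 18 in shHDAC3#1 and 10 between the HDAC3 hairpins. Of all genes measured this way, 6.47%, 8.61%, 19.3% and 9.96% were called in these comparisons, in the same order. The member medians were 0.11 in shDNMT1#1 and -0.14 in shHDAC3#1. TPP1 then changed by 0.34 in shDNMT1#2, 0.19 in shDNMT1#1, 0.20 in shHDAC3#1 and -0.02 between the HDAC3 hairpins. HEXA changed by 0.14 in shDNMT1#1, 0.16 in shHDAC3#1 and -0.10 between the HDAC3 hairpins, and ATP6V1H by 0.03 in shHDAC3#2 and 0.31 in shHDAC3#1. These ATP6V1H values came from a dim probe set with a mean of 2.76, against 6.9 for its brightest. SQSTM1 changed by -0.02 in shHDAC3#2, 0.19 in shHDAC3#1, 0.18 between the DNMT1 hairpins and -0.21 between the HDAC3 hairpins. With all probe sets of a gene averaged, 9 members were called in shDNMT1#1, where 5.47% of all genes were called. The member medians were then -0.10 in shDNMT1#2 and -0.12 in shHDAC3#1. In that fit SQSTM1 changed by 0.02 in shHDAC3#1 and 0.01 between the DNMT1 hairpins, and TPP1 by 0.01 in shDNMT1#2.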

Other observations

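Other probe sets of the members gave a second reading of these calls. Of the members, 29 had in all 53 other probe sets with a mean of at least 5. Where the brightest probe set of the gene was called, the other probe sets had the same sign in 21 of 26 cases in shDNMT1#2, 20 of 23 in shDNMT1#1, 16 of 19 in shHDAC3#2 and 24 of 34 in shHDAC3#1. OSTM1 and CSTB are among the genes counted. Probe sets of 1 gene share its RNA and arrays, so these are descriptions and not separate tests.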
